A study of Mus musculus with 6 samples.

Results

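Kruppel-like factors (KLFs) were followed in basal epidermal cells of mouse embryos at E18.5. The set holds the 9 genes Klf2, Klf3, Klf5, Klf6, Klf7, Klf9, Klf10, Klf13 and Klf15, picked by symbol from the 24354 genes of the deposited table, and all 9 were found. Klf4, the best known KLF of the epidermal barrier, is not among them and is used here only for comparison. RNA was sequenced from 3 wild-type (WT) samples and 3 homozygotes for Pik3ca H1047R, called mutant below; this change activates the kinase subunit of PI3K, phosphoinositide 3-kinase. The strain label of all 6 is C57BL6, and they held cells sorted for much α6 integrin on their surface, a laminin receptor subunit of basal keratinocytes. How the Pik3ca allele was made, the cells in which it is active and the number of animals are details not given in the sources used here. Hence p-values cover only the spread among the 3 samples of each group, and this may be technical.

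KLFs are transcription factors that bind GC-rich and CACCC-type DNA through 3 zinc fingers at the C-terminal end of the protein. The fingers are much alike across the family, and the rest of the protein sets what each factor does. Klf2, Klf5, Klf6 and Klf7 belong to a subgroup that mostly activates genes, as does Klf4. Klf3, like Klf8 and Klf12, recruits the corepressor CtBP, and Klf9, Klf10 and Klf13, like Klf11, Klf14 and Klf16, recruit the SIN3 corepressor. Klf15 stands outside these subgroups. In skin, Klf5 is a factor of proliferating basal keratinocytes, Klf4 is needed for the barrier, and Klf9 has been tied to the daily rhythm of keratinocyte division.

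Values are FPKM, fragments per kilobase of transcript scaled to a library total. They summed to 752768, 767148 and 656761 in WT and to 542210, 538627 and 651769 in mutant libraries. Each mutant total lay under each WT total. Between 11242 and 11351 genes per library reached 1 FPKM. Read totals are unknown. The most common ratio to WT replicate 1 among values under 1 FPKM gave relative depths between 0.973 and 1.23. These also carry any scaling of the libraries. The defining basal keratins were abundant in both groups, with Krt5 at 12028 ± 155 (SD, n = 3) and 11977 ± 919 FPKM (SD, n = 3) and Krt14 at 10194 ± 440 and 8453 ± 819 FPKM in WT and mutant libraries.

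Proximal promoters from RefSeq (GRCm38.p6) were matched by symbol for 7 of the 9 genes, all but Klf5 and Klf10, and 4 are shown because they carry motifs of pathways described below; they were chosen after the matches were seen. Each run ends before the first annotated exon, is written 5′ to 3′ on the plus strand, and has matches to the motif named with it in capitals. For Klf2 (chr8:72318812-72319032) the capitals mark a MEF2 box, for Klf3 (chr5:64803271-64803387) the GC box GGGCGG, for Klf9 (chr19:23140976-23141225) the forkhead core GTAAACA bound by FOXO factors, and for Klf15 (chr6:90462326-90462575) the E-box CACGTG bound by clock and other bHLH factors.
Klf2: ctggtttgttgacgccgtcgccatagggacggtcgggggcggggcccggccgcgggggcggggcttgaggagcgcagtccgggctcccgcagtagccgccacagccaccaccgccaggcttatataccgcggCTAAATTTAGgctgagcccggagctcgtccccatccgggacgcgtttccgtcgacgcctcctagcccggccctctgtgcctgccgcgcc
Klf3: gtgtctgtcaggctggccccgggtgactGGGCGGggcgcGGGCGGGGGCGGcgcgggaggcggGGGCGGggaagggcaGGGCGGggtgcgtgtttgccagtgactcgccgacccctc
Klf9: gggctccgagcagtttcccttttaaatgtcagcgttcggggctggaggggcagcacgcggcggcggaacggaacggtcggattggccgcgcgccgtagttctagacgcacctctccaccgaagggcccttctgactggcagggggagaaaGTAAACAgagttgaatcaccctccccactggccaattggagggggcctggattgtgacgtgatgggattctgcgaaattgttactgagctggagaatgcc
Klf15: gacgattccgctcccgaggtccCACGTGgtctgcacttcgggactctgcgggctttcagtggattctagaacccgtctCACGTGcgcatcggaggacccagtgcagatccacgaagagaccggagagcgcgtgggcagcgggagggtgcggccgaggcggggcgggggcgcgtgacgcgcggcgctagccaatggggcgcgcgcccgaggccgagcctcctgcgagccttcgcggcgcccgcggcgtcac

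Motifs were searched on both strands of the whole 300-base windows, from 250 bases before to 50 bases after each start site. The MEF2 box was found in Klf2 alone among the 7 genes and in 0.557% of all 32851 promoters of that length. Only the Klf9 window held GTAAACA, which 3.65% of all promoters hold. CACGTG was found 3 times in Klf15 and 1 time in Klf6, against 7.15% of all promoters with a match; the last of the Klf15 matches lies at the start of its first exon and is not printed. The KLF-type GC box was found 6 times in Klf3, 3 times in Klf13 and 2 times in Klf2, and 6 of the 7 windows held it, against 35.7% of all. CACCC, another KLF-type motif, was found 5 times in Klf3, and 6 of the 7 windows held it, against 57.5% of all. The AP-1 sites TGACTCA and TGAGTCA and the CArG box of serum response factor were found in 0 of the 7 windows, against 5.2% and 1.63% of all. These windows are GC-rich, with between 58.3% and 76.7% G and C against a median of 52.7%, which by itself favours matches to GC-rich motifs.

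Mutant and WT libraries were compared to ask what activated PI3K does to gene expression in epidermal progenitors before birth. KLF mRNAs moved in both directions: Klf3, Klf15, Klf13 and Klf2 rose, by 2.75-fold to 1.62-fold in mean FPKM, and Klf7, Klf6, Klf9, Klf10 and Klf5 fell, by 2.44-fold to 1.14-fold. All 9 reached the 1 FPKM mean needed for testing, 9 passed a limma adjusted p of 0.05 (4 higher and 5 lower), and the 3 WT and 3 mutant values did not overlap for any of them. Of all 11385 genes tested, 46.0% passed in either direction (23.2% higher and 22.8% lower), and the groups did not overlap for 56.0%. The 9 genes were proposed with these results known, so their count is a description. Over all 17 KLF genes of the table, 14 were tested and 11 passed, 4 higher and 7 lower. The exact two-sided permutation test gave p = 0.1 for each of the 9, the smallest that 3 against 3 libraries allow. Their median log2 fold change was -0.18, against 0.01 for all genes tested. Directions hold for the values as deposited. With each library brought to the same total FPKM, called equal library totals below, the median of all genes moved to 0.30, 86.5% of the genes called were higher against 50.5% as deposited, and the 9 factors split into 4 higher and 2 lower.

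**Figure D1:**
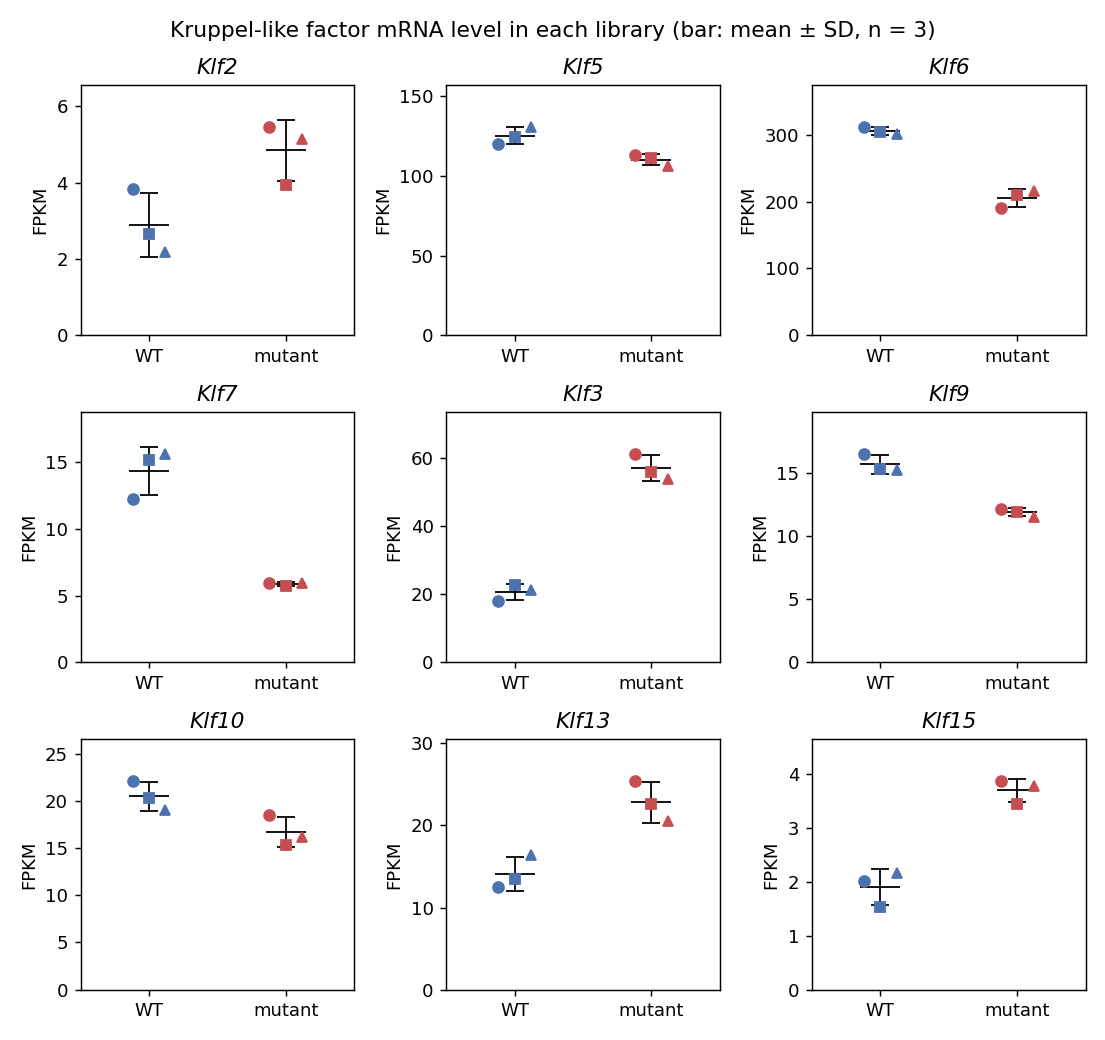
FPKM (y axis, from 0, a scale for each gene) of the 9 factors in the 3 WT and 3 mutant libraries; symbols mark replicates 1 (circle), 2 (square) and 3 (triangle), and bars give the mean ± SD. Within every panel the groups stand apart, by a wide gap for Klf3 and Klf7 and by a narrow one for Klf2, Klf5 and Klf10.

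Klf6 and Klf5 were the most abundant of the 9 and both were lower in mutant libraries. Klf6, a ubiquitous activator that is quickly induced by injury and growth signals, was at 311.9, 303.7 and 301.1 FPKM in WT and at 190, 209.7 and 216 FPKM in mutant libraries. Each mutant value lay far under each WT value, and the log2 fold change was -0.57 (SE 0.0733, limma adjusted p = 0.000611). Its call held in all 14 alternatives, although the size shrank to -0.22 under quantile normalization and to -0.24 with equal library totals. Klf5, the basal keratinocyte activator, was at 119.8, 124.4 and 130.7 FPKM in WT and at 113, 111 and 106 FPKM in mutant libraries. The lowest WT and highest mutant values lay close together, and the log2 fold change was -0.18 (SE 0.0631, limma adjusted p = 0.0468). That call was lost in 10 of 14 alternatives with the same direction, among them leaving out any of the 6 libraries (limma adjusted p = 0.0615 to 0.124), and turned to 0.05 under quantile normalization and to 0.15 with equal library totals.

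Klf7, an activator best known from neurons, had the largest fall, and Klf2, the quiescence factor of endothelial cells and T cells, was the only activator of the 4 that rose. Klf7 lies on chromosome 1 from 64035671 to 64121389 (GRCm38, minus strand), a locus that holds 92.3% of the annotated gene. It was at 12.2, 15.1 and 15.6 FPKM in WT and at 5.9, 5.7 and 5.95 FPKM in mutant libraries. The mutant libraries were nearly equal and the lowest WT value was above all of them by a wide margin (log2 fold change -1.15, SE 0.0913, limma adjusted p = 5.72e-05). Klf2 was low throughout, at 3.83, 2.67 and 2.19 FPKM in WT and at 5.47, 3.95 and 5.15 FPKM in mutant libraries. WT replicate 1 and mutant replicate 2 nearly met (log2 fold change 0.60, SE 0.164, limma adjusted p = 0.0187), and the call was lost without WT replicate 2 (0.0533), mutant replicate 1 (0.0573) or mutant replicate 3 (0.0512). Markers of endothelial cells, which carry much Klf2, are given beside it. Of 12, 1 reached a mean of 1 FPKM, Egfl7, and that gene fell. The Egfl7 call ended with equal library totals (-0.26, limma adjusted p = 0.153). Over all 12 the summed level was between 9.67 and 14.6 FPKM in WT and between 5.37 and 8.32 FPKM in mutant libraries. Egfl7 alone averaged 7.12 and 4.64 FPKM of this. The defining gene Cdh5 was at 0.39 and 0.26 FPKM and Kdr at 0.15 and 0.12 FPKM on average. Markers of immune cells were at 26.0 to 37.9 FPKM in sum in WT and at 18.1 to 23.1 FPKM in mutant libraries, with 4 of 8 tested lower and 0 higher, or 0 and 0 with equal library totals. In bulk RNA, fewer cells of a type and less RNA per cell cannot be told apart. The part of endothelial and immune cells in the Klf2 level was not tested.

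Klf3, the CtBP-recruiting repressor, showed the largest change of the family. The table places it on chromosome 5 from 64803523 to 64830129 (GRCm38), on the plus strand of the annotation. It was at 18.1, 22.9 and 21.2 FPKM in WT and at 61.2, 55.8 and 53.8 FPKM in mutant libraries. Even the lowest mutant value lay far above the highest WT value, and this was the one factor whose deposited intervals did not overlap between any WT and any mutant library. Its log2 fold change was 1.42 (SE 0.0916, limma adjusted p = 2.33e-05), and between 1.33 and 1.74 in the alternatives. An exon of Klf3 overlaps one of Gm20033, annotated on the other strand, and exons of Klf7 overlap those of Gm13748 and Gm26649; reads of these may be included, with strandedness not given in the sources used here. Klf8 and Klf12, which also recruit CtBP, were low and did not pass: the first was at 1.21 ± 0.125 and 1.16 ± 0.113 FPKM (SD, n = 3; limma adjusted p = 0.79) and the other at 1.01 ± 0.303 and 1.31 ± 0.332 FPKM (limma adjusted p = 0.334).

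Among the SIN3-recruiting repressors Klf13 was higher and the others lower. Klf13, first described as a regulator of the chemokine Ccl5 in T cells, was at 12.4, 13.5 and 16.4 FPKM in WT and at 25.4, 22.6 and 20.5 FPKM in mutant libraries (log2 fold change 0.66, SE 0.111, limma adjusted p = 0.00225). Klf9, a target of the glucocorticoid receptor in many tissues, was at 16.5, 15.3 and 15.2 FPKM in WT and at 12.2, 11.9 and 11.6 FPKM in mutant libraries (log2 fold change -0.37, SE 0.0592, limma adjusted p = 0.00174). Klf10, an early target of TGF-beta, was at 22.1, 20.3 and 19.0 FPKM in WT and at 18.4, 15.4 and 16.2 FPKM in mutant libraries (log2 fold change -0.28, SE 0.0843, limma adjusted p = 0.027). For Klf9 the gap between the groups exceeded the range within either, and for Klf13 it was about as wide as that range, whereas the lowest WT and the highest mutant value of Klf10 differed by less than the spread within either group. With equal library totals the calls of Klf9 (-0.06, limma adjusted p = 0.666) and Klf10 (0.03, limma adjusted p = 0.827) ended, and Klf10 also lost its call when WT replicate 1 or 2 or mutant replicate 2 or 3 was left out (limma adjusted p = 0.0624 to 0.0997). Klf11 and Klf16 of the same subgroup fell, from 24.4 ± 1.0 to 13.7 ± 0.375 FPKM and from 27.0 ± 1.15 to 19.2 ± 1.17 FPKM (SD, n = 3 in each group), so that 4 of the 5 tested members were lower and 1 was higher. The call of Klf16 ended with equal library totals (-0.15, limma adjusted p = 0.271).

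Klf15, a factor of fasting metabolism in liver, muscle and fat, was low and higher in mutant libraries. It was at 2.02, 1.53 and 2.16 FPKM in WT and at 3.86, 3.45 and 3.76 FPKM in mutant libraries, a 1.94-fold difference in means (log2 fold change 0.70, SE 0.104, limma adjusted p = 0.00131). The gap between the groups was wider than the range within either. Markers of muscle cells and adipocytes, which are rich in Klf15, are given beside it. Summed muscle markers were at 21.9 to 35.6 FPKM in WT and at 14.7 to 15.8 FPKM in mutant libraries, with 3 of 5 tested lower and 0 higher. Of 4 adipocyte markers tested 0 passed in limma in either direction. They varied widely within WT, as with Fabp4 at 30.8, 13.2 and 2.68 FPKM. The part of these cells in the Klf15 level was not tested.

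**Figure D2:**
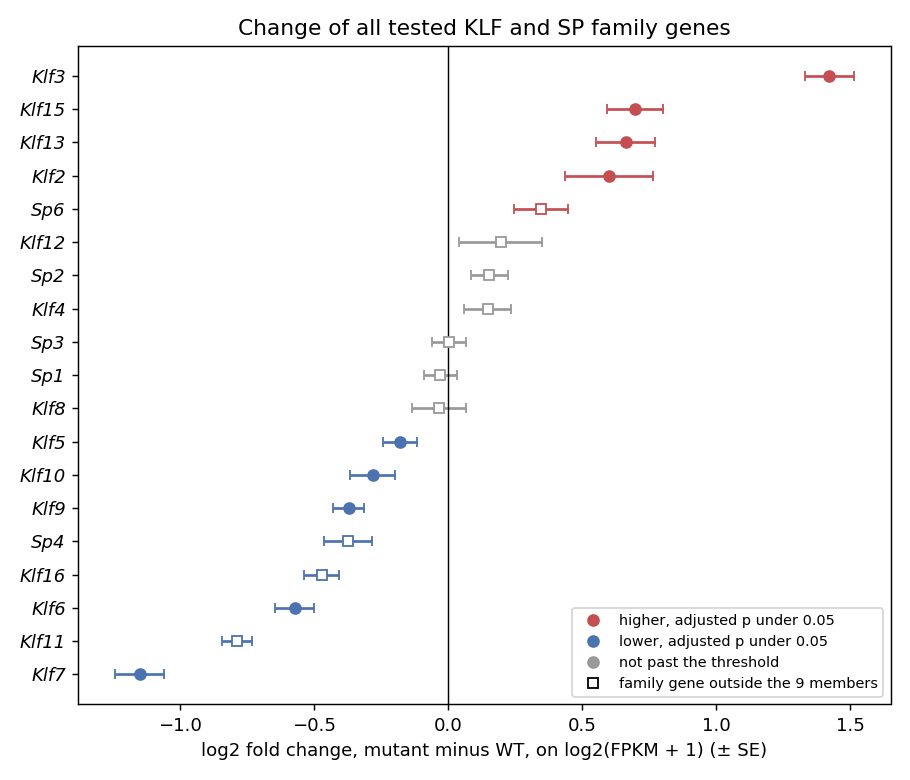
Log2 fold change (x axis, mutant minus WT on log2(FPKM + 1), ± SE, n = 3 per group) of the 19 tested KLF and SP family genes, ordered by size; filled circles are the 9 factors, open squares the other family genes, and colour gives the call. Klf3 stands alone at the top and Klf7 at the bottom, with Klf4, Sp1 and Sp3 near 0.

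**Figure D3:**
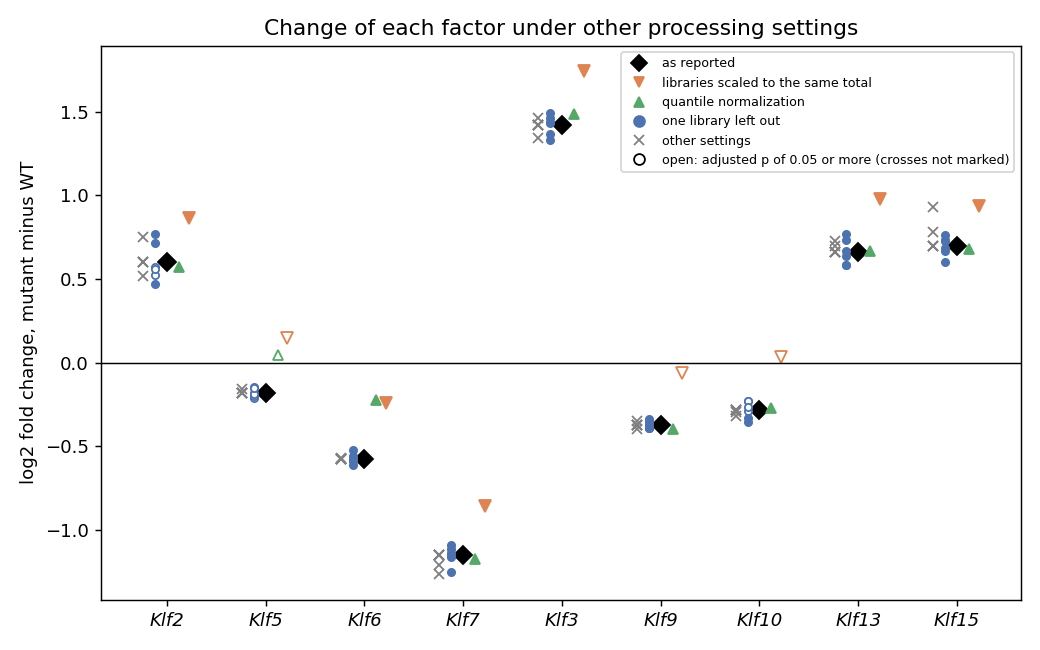
Log2 fold change (y axis, mutant minus WT) of the 9 factors as reported (diamonds), with libraries scaled to the same total FPKM, under quantile normalization, with 1 library left out and in the other settings; open symbols have an adjusted p of 0.05 or more (crosses, for the other settings, do not show it). All points of Klf3, Klf13, Klf15 and Klf2 lie above 0 and all of Klf6 and Klf7 below it, while those of Klf5 and Klf10 lie on both sides.

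Of the other family genes, Klf4 was at 148 ± 15.7 and 163.8 ± 7.66 FPKM (SD, n = 3) and did not pass (log2 fold change 0.15, limma adjusted p = 0.207), but it passed as higher with equal library totals (0.48, limma adjusted p = 0.0124) and under quantile normalization (0.41, limma adjusted p = 0.0183). The broadly expressed Sp1 and Sp3 were at 34.0 and 33.3 FPKM and at 39.9 and 39.9 FPKM in WT and mutant libraries, neither past the threshold as deposited. Sp6, a factor of ectodermal organs, rose from 3.57 ± 0.23 to 4.84 ± 0.753 FPKM, and Sp4 fell from 2.77 ± 0.12 to 1.91 ± 0.205 FPKM (SD, n = 3 in each group), a call that ended with equal library totals (limma adjusted p = 0.406). Klf1, Klf14 and Klf17 stayed under the filter, with no value above 0.558 FPKM.

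A ratio between genes of the same library does not change when all values of that library are multiplied by a single factor, as with equal library totals, though it can change under quantile normalization. The ratio of Klf3 to Klf7 was 1.48, 1.51 and 1.36 in WT and 10.4, 9.79 and 9.05 in mutant libraries, and that of Klf13 to Klf9 was 0.753, 0.88 and 1.08 against 2.08, 1.9 and 1.77. Klf6 exceeded Klf3 by 17.2, 13.3 and 14.2 times in WT and by 3.11, 3.76 and 4.01 times in mutant libraries. The groups could not overlap in these ratios. Klf3 and Klf13 were higher in each mutant library than in any WT library, and Klf6, Klf7 and Klf9 lower. Of the summed FPKM of the 17 KLF genes, Klf6 took 42.3% ± 1.74 in WT and 32.2% ± 2.21 in mutant libraries (SD, n = 3 in each group). The share of Klf3 was 2.86% ± 0.315 and 8.93% ± 0.578, and that of Klf4 was 20.5% ± 1.67 and 25.7% ± 0.928. Klf5 took 17.3% ± 0.349 and 17.3% ± 0.656, with overlapping groups, and the shares of Klf10 overlapped as well. In order of level, Klf6, Klf5 and then, but for WT replicate 1, Klf3 led the 9 in each library, and Klf2 and Klf15 were lowest in each. Among the rest, WT values of Klf3 and Klf10 overlapped, and so did those of Klf9, Klf7 and Klf13. In mutant libraries the order Klf3, Klf13, Klf10, Klf9, Klf7 held in each, with no overlap between neighbours.

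**Figure D4:**
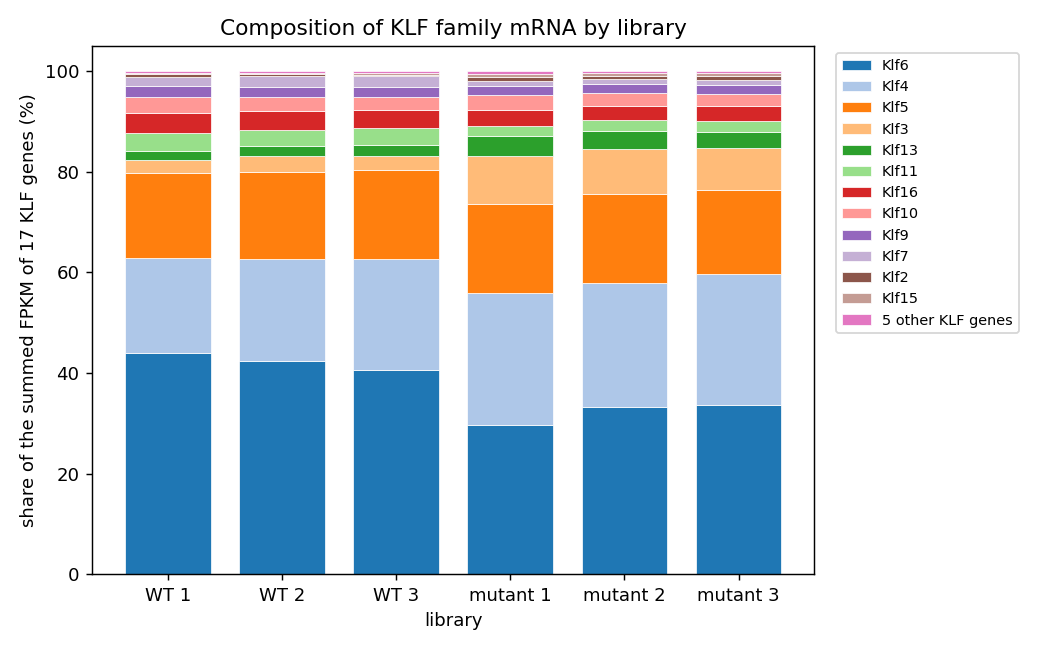
Share (y axis, percent) of each gene in the summed FPKM of the 17 KLF genes, 1 stacked bar for each library. The Klf6 segment is shorter and the Klf3 and Klf13 segments taller in all 3 mutant libraries, while the Klf5 segment stays between 16.5% and 17.7%.

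Genes of pathways known to act on KLFs were mixed. The counts of each list stand beside the 46.0% of all tested genes that passed as deposited, 23.2% higher and 22.8% lower. With equal library totals, 5396 of all 11413 tested genes were higher and 839 lower. Of 9 tested genes of the ERK5, MEF2 and FOXO list, 1 was higher and 2 lower (median log2 fold change 0.03, against 0.01 for all genes). With equal library totals 4 were higher and 0 lower (median 0.34, against 0.30). Foxo1, a forkhead factor that PI3K signalling keeps out of the nucleus, rose from 2.13 ± 0.315 to 3.25 ± 0.289 FPKM (SD, n = 3 in each group), while Map3k3 fell from 21.9 to 18.7 FPKM and Mef2d from 30.9 to 24.7 FPKM. Mef2a was at 74.4 ± 3.06 and 79.5 ± 5.28 FPKM (limma adjusted p = 0.304). Both lower calls ended with equal library totals, with values of 0.10 and 0.01. Of 11 tested glucocorticoid receptor genes and targets, 4 were higher and 4 lower (median 0.16), or 7 and 2 with equal library totals (median 0.49). Per1 rose from 34.9 to 57.5 FPKM and Dusp1 from 116 to 175 FPKM, whereas Errfi1 fell from 268 to 102 FPKM and the kinase gene Sgk1 from 26.7 to 15.4 FPKM. Klf9 and Klf15, both known targets of that receptor, moved in opposite directions.

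Klf9, Klf10 and Klf15 cycle with the clock in several tissues. Of 15 tested clock genes, 3 were higher and 4 lower (median 0.01), or 4 and 2 with equal library totals (median 0.26). The repressor Cry1 fell from 35.9 ± 1.16 to 16.5 ± 1.04 FPKM, Nfil3 from 24 ± 1.67 to 13.8 ± 0.447 FPKM and Nr1d2 from 8.05 ± 0.259 to 5.88 ± 0.132 FPKM (SD, n = 3 in each group), and Per1 rose as given above. The Nr1d2 call ended with equal library totals (limma adjusted p = 0.465). The time of day at sampling was not given in the sources used here.

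Of 14 tested corepressors and ubiquitin ligases that act with KLFs, 1 was higher and 3 lower (median -0.12). With equal library totals 3 were higher and 1 lower (median 0.20). Fhl3, a LIM-only partner of Klf3, fell from 43.3 ± 3.64 to 10.3 ± 1.59 FPKM (SD, n = 3 in each group), opposite to Klf3 itself. Smurf1 fell from 22.4 to 13.9 FPKM and Siah1a from 15.5 to 12.1 FPKM, calls that ended with equal library totals (limma adjusted p = 0.0734 and 0.883), and Wwp1, a ligase that targets Klf5, rose from 5.97 to 7.65 FPKM. Of 18 tested genes reported as direct KLF targets in other tissues, 4 were higher and 6 lower (median -0.05). With equal library totals 8 were higher and 2 lower (median 0.27). Lgals3, which Klf3 represses in other cells, rose from 212 ± 21 to 331 ± 16.8 FPKM alongside Klf3. Egfr fell from 39.6 to 24.3 FPKM, Atf3 from 1526 to 880 FPKM and Slc2a4, a glucose transporter gene that Klf15 activates in muscle and fat, from 8.15 to 4.88 FPKM, the last of these not past the threshold with equal library totals (limma adjusted p = 0.0511).

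Klf2, Klf6 and Klf10 are also among the genes that rise while tissue is dissociated, so immediate early and stress genes are given beside them. Of 27 tested, 11 were higher and 8 lower (median 0.04), 14 and 7 with equal library totals, and 14 and 5 under quantile normalization. Hspa1a fell from 68.9 ± 1.36 to 17 ± 3.94 FPKM, its near-identical copy Hspa1b, which shares reads with it and is uncertain, from 86.8 to 34.0 FPKM, and Ier3 from 243 to 86.3 FPKM. Egr3 rose from 16.1 ± 1.9 to 34.5 ± 1.75 FPKM (SD, n = 3 in each group). Egr1 rose from 375 to 870 FPKM and Fos from 379 to 681 FPKM. The part of dissociation in the KLF levels was not tested.

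**Figure D5:**
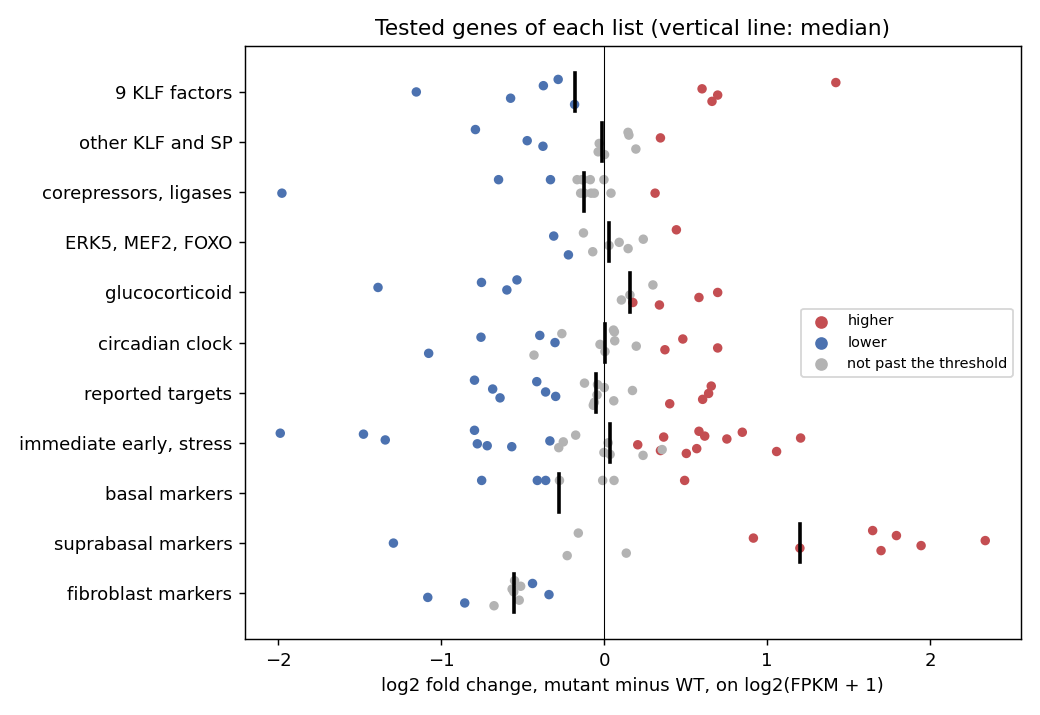
Log2 fold change (x axis, mutant minus WT on log2(FPKM + 1)) of each tested gene of 11 lists, with the list's median as a vertical line and the call as colour. The 9 factors fall on both sides of 0 with none near it but Klf5, suprabasal markers lie mostly to the right and fibroblast markers to the left.

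Markers of other layers and cell types moved as well. Of 11 tested suprabasal keratinocyte markers, 7 were higher and 1 lower (median 1.2), or 8 and 1 with equal library totals (median 1.53). The summed level of these markers was between 3878 and 4682 FPKM in WT and between 11815 and 14427 FPKM in mutant libraries. Krt1 rose from 1489 to 5730 FPKM and Krt10 from 1704 to 5899 FPKM. Zfp750 rose from 7.53 to 42.3 FPKM, Dsc1 from 5.83 to 20.3 FPKM, Dsg1a from 32.1 to 75.4 FPKM and Grhl3 from 6.13 to 12.4 FPKM. The 1 lower was Lor, from 76.6 to 31.6 FPKM with overlapping groups, and Krtdap, Sbsn and Ivl did not pass as deposited. Of 7 basal markers, 3 were lower and 1 higher (median -0.27), or 1 and 3 with equal library totals (median 0.06). Itgb4 went from 157 to 92.7 FPKM, Itga6 from 163 to 122.5 FPKM, Col17a1 from 517 to 402 FPKM and Krt15 from 2546 to 3586 FPKM. With equal library totals the calls of Itga6 and Col17a1 ended. Of 10 tested fibroblast markers 4 were lower and 0 higher, or 1 and 0 with equal library totals. Summed levels were 449.6 to 592 FPKM in WT and 343.5 to 388.5 FPKM in mutant libraries. Dcn alone averaged 272 and 215 FPKM of this. Thy1 fell from 45.4 to 21.2 FPKM. Col1a1, Col1a2 and Col3a1 overlapped between groups and did not pass (limma adjusted p = 0.163 to 0.199). Of 3 tested melanocyte and Schwann cell markers 2 were lower, or 0 with equal library totals. The part of these cells in the KLF changes was not tested.

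The listed genes whose level over the 6 libraries was most like that of a factor were found among 84 tested genes of the family, cofactor, upstream, glucocorticoid, clock and immediate early lists. The measure is Pearson's r of log2(FPKM + 1) over 6 libraries, given as a description; it mainly follows the difference between the groups and all genes of a library share its scaling. For Klf3 these were Egr1 (0.991) and Fos (0.991), for Klf13 Cry2 (0.986) and Per1 (0.985), for Klf15 Wwp1 (0.979) and Egr3 (0.978), and for Klf2 Mt2 (0.942) and Ier2 (0.937). For Klf6 they were Atf3 (0.995) and Errfi1 (0.994), for Klf7 Smurf1 (0.977) and Cry1 (0.973), and for Klf9 Nfil3 (0.997) and Ier3 (0.995). For Klf5 they were Zbtb16 (0.99) and Jun (0.964), and for Klf10 Nfkbia (0.97) and Junb (0.969).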

How the data were processed

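The deposited table gives the authors' FPKM values, and interval bounds for each of them, for 24354 genes in 6 libraries, per the file headers. Reads were aligned with TopHat and quantified with Cufflinks, as the submitters' processing notes say, with versions, settings, library scaling and strandedness not given in the sources used here. Those notes name mm9, but 98.9% of 23315 symbols found in GENCODE M21 lay at their GRCm38 position, so GRCm38 was used. Read totals are unknown, so no count test was run.

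Groups came from the genotype labels. limma 3.58.1 in R 4.3.3 (empirical Bayes with a trend) was fitted on log2(FPKM + 1) to 11385 genes, those averaging 1 FPKM or more over the libraries, with Benjamini-Hochberg adjustment over all of them and a threshold of 0.05. Fold changes on that scale understate those of low genes; folds are ratios of mean FPKM. The procedure was tested on simulated data with few changed genes, independent noise and no difference in library totals between groups. That test does not cover the many calls or the unequal totals of these libraries. Python 3.11.15 (numpy 2.4.6, pandas 2.3.3, scipy 1.17.1, matplotlib 3.10.9) made tables, permutation tests and figures.

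The 9 genes and the lists were chosen with earlier results of these data known. Named are the 9 genes, all tested KLF and SP genes, and up to 4 genes of each other list. The latter are those past the threshold by smallest p, then by level. Krt5, Krt14, Cdh5, Kdr, Egr1, Fos, Krt1, Krt10, Lor, Krtdap, Sbsn, Ivl, Col1a1, Col1a2 and Col3a1 were named after their values were seen. Alternatives covered the pseudocount, filter, scaling, weights of libraries, variance prior, the replicate number as a block, each library left out in turn, and the threshold.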

Additional observations from a re-analysis of the deposited data

How the results depend on the processing

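Klf3, Klf6, Klf7 and Klf13 kept their direction and call in all 14 alternatives, and Klf15 in all 13 in which it was tested. With libraries scaled to the same total FPKM, the median gene moved to 0.30 on the log2 scale (0.01 as deposited), the calls became 5396 higher and 839 lower (86.5% higher, against 50.5% as deposited), 4 of the 9 factors were higher and 2 lower, and Klf5 (0.148), Klf10 (0.0332) and Klf9 (-0.0632) lost their calls; relative to the median gene these 3 were at -0.16, -0.27 and -0.37. This scaling raises mutant values relative to WT because the deposited totals were lower in mutant libraries. Why the totals were lower was not tested. Quantile normalization put Klf5 at 0.0469. Klf5 also lost its call with a pseudocount of 0.1 (-0.18, limma adjusted p = 0.051), a filter of 5 FPKM (-0.18, 0.0565), a variance prior without a trend (-0.18, 0.0526) and the replicate block (-0.18, 0.174). Under the 5 FPKM filter, which removes Klf2 and Klf15 from the test, 2 of the factors were higher. At a threshold of 0.01, 3 factors were lower and 3 higher, with 1554 genes higher and 1634 lower in all. Leaving out 1 library at a time gave between 3 and 4 lower and between 3 and 4 higher factors; Klf2 ranged from 0.47 to 0.77, Klf5 from -0.21 to -0.15 and Klf10 from -0.35 to -0.23 on the log2 scale. Same-numbered libraries of the groups deviated together with r = 0.127, 0.122 and -0.00735 across genes, and differently numbered ones with r between -0.157 and 0.0619. These values do not settle whether the numbers mark pairs, and the main fit did not take them as pairs. With the replicate block, 4 factors were higher and 4 lower, and 1889 genes higher and 1909 lower in all. Read totals are unknown, so the limit set by depth cannot be given. The deposited intervals reached from 31.5% to 59.3% of the value on either side over the 9 factors. They did not narrow steadily with level and are no measure of depth. Klf2 and Klf15, the lowest, had wider intervals than Klf3, Klf9, Klf10 and Klf13. Klf15 had 42.9% to 56.8% and Klf3 had 31.7% to 32.9%. Klf6, the most abundant, had 49.2% to 59.3%, and Klf10 had 31.6% to 32.1%. For 8 of the 9, intervals overlapped between groups in at least 1 pair of libraries.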
